A study of Rattus norvegicus with 5 samples.

Results

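The genes described here encode the synaptic vesicle release machinery, measured in projection neurons of the rat striatum. They were chosen by name among the genes of the authors' deposited comparison, with Sytl names left out. The names were synapsins, synaptophysin and Snap25, and those that start with Syt, Vamp, Stx, Sv2, Rab3, Cplx, Rims, Unc13, Stxbp, Doc2 or Napa. Of 12054 genes in the authors' deposited comparison, 77 had such a name. The name rule also takes 10 GTPases called Rab30 to Rab39a, which are not of the Rab3 subfamily. It takes 8 syntaxins of membranes inside the cell too, mainly endosomes and the Golgi, and both sets are described apart. Neurons had been labelled by fluorescent tracer carried back from their axon terminals and were cut out of striatum by laser capture. Striatomesencephalic neurons, which project to the midbrain and form the direct pathway, gave 2 libraries. Striatopallidal neurons, which project to the pallidum and form the indirect pathway, gave 3. Both groups received tracer, neither carries a genetic change in the labels, and the sources used here do not give strain, age, or the cells and animals behind a library.

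At a synapse, vesicles filled with transmitter dock at the active zone and fuse with the plasma membrane when calcium enters. Fusion is driven by SNARE proteins, with synaptobrevin (Vamp) on the vesicle and syntaxin and SNAP-25 on the plasma membrane, and is set up by Munc13 (Unc13) and RIM proteins. Synaptotagmins sense the calcium, complexins clamp and promote fusion, and NSF with its adaptor alpha-SNAP (Napa) takes the spent SNARE complex apart. Striatal projection neurons release GABA from long axons and from local collaterals, and the transcripts measured here come from their cell bodies.

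Library totals ran from 20845178 to 24805062 counts, and 3 counts correspond to 0.121 to 0.144 CPM (counts scaled by library size); that floor covers counting error only. Direct pathway markers (5 genes, Drd1 and Pdyn among them) summed to 4197 and 4842 CPM in striatomesencephalic and 1476 to 2099 CPM in striatopallidal libraries. Indirect pathway markers (4 matched genes, Drd2 and Penk among them) summed to 1315 and 1680 against 4970 to 7103 CPM. The 10 markers shared by both kinds of projection neuron summed to 12814 to 22337 CPM. RNA of other cells was present: 10 oligodendrocyte markers summed to 5725 and 7347 CPM against 5029 to 8992, 8 astrocyte markers to 1312 and 1146 against 1210 to 1344, 5 microglial markers to 34.3 and 20.2 against 29.6 to 91.8, and 5 interneuron markers to 58.2 and 81.1 against 79.3 to 121. Of 6 markers of cortical glutamatergic neurons only Rorb was matched, at 124 and 54.4 CPM against 19.7, 17.7 and 19.1 CPM. Rorb thus had the same order of groups as the release genes described as higher in striatomesencephalic libraries, Rab3b and Vamp4 among them, and its part in those values was not tested. Markers were matched by name in the authors' comparison, which holds 12054 of the 32285 counted genes. No matched marker was at 0 counts in any library, and markers without a match are not covered by that. Striatopallidal replicate 2 stood apart, with rank correlations of 0.785 to 0.820 with the other libraries over 13811 genes and 0.721 to 0.797 over the release genes, while the other pairs ran from 0.845 to 0.907 and from 0.816 to 0.930. Whether replicate libraries came from different animals is not stated, so p-values measure the spread between these libraries only.

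No release machinery gene passed the test of a difference between the neuron types after adjustment over all genes, and fold changes of either sign were about as frequent. Of the 77 genes, 76 passed the filter on low counts. With edgeR's quasi-likelihood test 0 of 76 passed the Benjamini-Hochberg threshold of 0.05, where 0% of all 13811 genes tested passed, and the smallest adjusted p among the 76 was 0.779. At an unadjusted p under 0.05 there were 5 of 76 (6.58%), beside 6.07% of all genes tested. Of those, 2 were higher in striatomesencephalic libraries (2.93% of all genes) and 3 in striatopallidal libraries (3.14% of all genes). DESeq2 called 2 of the genes, Syn1 and Rab3b, beside 1.66% of all genes. The exact test of edgeR called Syn1 alone, beside 0.326% of all genes, and limma voom called 0, as it did over all genes (0%).

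Fold changes are on the log2 scale and are signed so that a positive value means higher in direct pathway neurons. The median over the 76 genes was 0.12, beside -0.06 over all genes tested. Values above 0 numbered 41 of 76 (53.9%, beside 47.4% of all genes). With library totals as the only scaling they numbered 49 of 76, where the median of all genes was 0.0024. A fold change beyond 1 in size was found in 18 of 76 genes (23.7%), beside 35.4% of all genes. The CPM ranges of the groups were apart for 18 of 76 genes (23.7%), beside 21.6% of all genes tested, with 10 higher in striatomesencephalic libraries (10.4% of all genes) and 8 in striatopallidal libraries (11.2% of all genes). The shares of positive values and of groups apart lie near the background. Fold changes beyond 1 in size were less frequent among the release genes than among all genes, a difference that was not tested. The sets were not filtered alike, because release genes came only from the authors' comparison. Of the 13811 background genes, 11904 had a name there. The 10 genes were Rab3b, Vamp4, Stx16, Stxbp3, Syt11, Unc13b, Unc13c, Cplx2, Stx7 and Stx12. The 8 genes were Syn1, Snap25, Napa, Cplx1, Syt2, Syt14, Rab3gap2 and Rab32. Fewer neurons of a type in a library and less RNA per neuron cannot be told apart in these data.

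**Figure D1:**
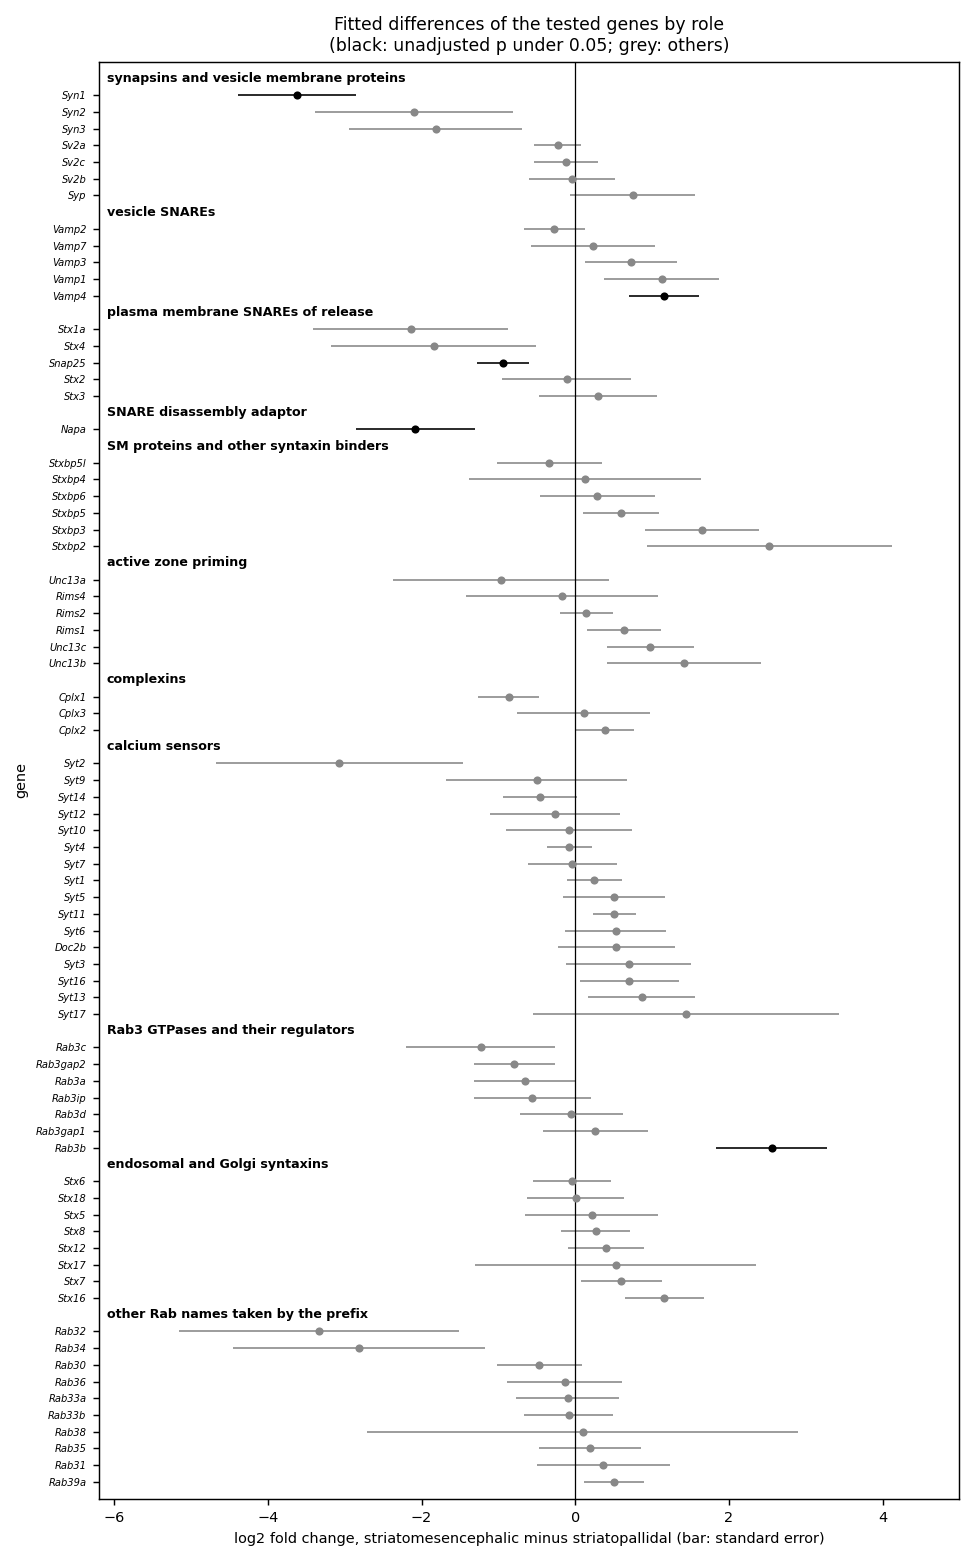
Log2 fold change of 74 of the 76 tested genes (x axis, striatomesencephalic minus striatopallidal) with its standard error as a bar, grouped by role (y axis). Black points are the 5 genes with an unadjusted p under 0.05: Syn1, Snap25 and Napa on the striatopallidal side, and Rab3b and Vamp4 on the striatomesencephalic side.

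The synapsin gene Syn1 had the smallest p of the release genes. Synapsins are the phosphoproteins that tether vesicles to each other and hold them in reserve. Syn1 stood at 18.6 and 40.1 CPM in striatomesencephalic replicates 1 and 2, from 406 and 924 counts. It stood at 178, 659.9 and 248 CPM in striatopallidal replicates 1, 2 and 3, from 4826, 12656 and 5909 counts. Every striatopallidal library was above both striatomesencephalic libraries. The log2 fold change was -3.62 ± 0.77 (SE), with an adjusted p of 0.779 in edgeR's quasi-likelihood test. DESeq2 gave an adjusted p of 0.00135 and the exact test of edgeR 0.0249. Leaving out each library in turn gave fold changes from -4.27 to -2.87, the latter without striatopallidal replicate 2. The unadjusted p of Syn1 stayed under 0.05 in each of these. The astrocyte filament gene Gfap had the same order of groups, at 11.0 and 3.78 against 213, 226 and 82.4 CPM, and its part in the Syn1 difference was not tested. The other 7 astrocyte markers did not share one order: Aqp4 was likewise higher in all striatopallidal libraries, Aldoc and Aldh1l1 were higher in both striatomesencephalic libraries, and the groups overlapped for the remaining 4 and for the sum of all 8. In the RefSeq annotation the Syn1 gene overlaps Araf and holds Timp1. Araf stood at 77.1 and 95.8 CPM against 83.6, 144 and 51.7 CPM, with overlapping groups, and Timp1 was not analysed here. The sources used here do not say whether counting used strand, so reads in the overlapping parts are uncertain, as they are for Syn2, which overlaps Timp4, and Syn3, which overlaps Timp3 and Fbxo7. Fbxo7 stood at 80.5 and 2.78 CPM against 18.5, 2.55 and 29.5 CPM. It was low in striatopallidal replicate 2, where Syn3 was high, and also in striatomesencephalic replicate 2, where Syn3 was not. Timp3 and Timp4 were not analysed here either.

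Syn2 and Syn3 did not share that pattern, and each was set by another library. Syn2 stood at 698 and 460.3 CPM in striatomesencephalic libraries and at 6651, 345 and 449.98 CPM in striatopallidal libraries. Only striatopallidal replicate 1 was high, at 9.52 times the next library, and the other striatopallidal libraries lay below both striatomesencephalic ones. The fold change of -2.10 ± 1.29 (SE, adjusted p = 0.799 with edgeR's quasi-likelihood test) was 0.54 without that library. Syn3 stood at 49.9 and 47.6 CPM against 32.1, 429 and 54.5 CPM, so striatopallidal replicate 2 alone was high. Its fold change of -1.82 ± 1.12 (SE, adjusted p = 0.799 with edgeR's quasi-likelihood test) was 0.16 without that library. Syn1 made up 2.43% and 7.32% of the summed synapsin counts in striatomesencephalic libraries and 2.59%, 46.0% and 33.0% in striatopallidal libraries. In that share striatopallidal replicate 1 fell among the striatomesencephalic libraries because its Syn2 counts were high.

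**Figure D2:**
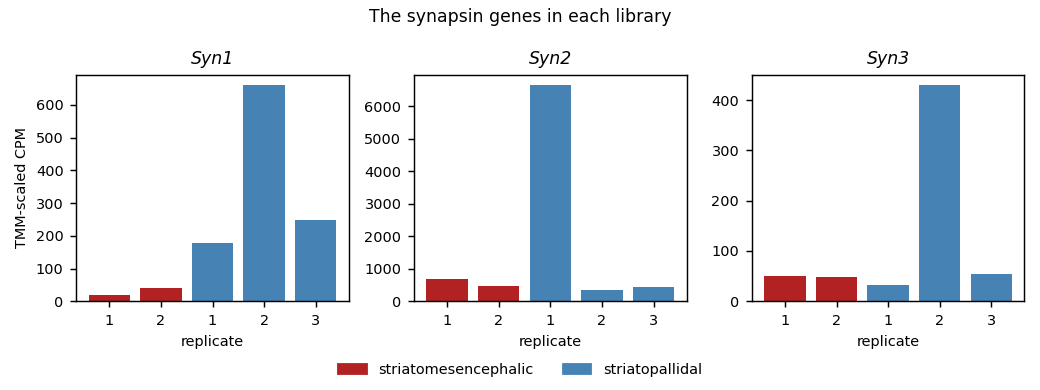
TMM-scaled CPM (y axis, a scale for each gene) of the synapsin genes Syn1, Syn2 and Syn3 in each library (x axis, replicate number), with striatomesencephalic libraries in red and striatopallidal libraries in blue. Syn1 is low in both red bars, while the high bars of Syn2 (6651 CPM) and Syn3 (429 CPM) are single striatopallidal libraries.

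The sequences upstream of Syn1, Syn2 and Rab3b are shown because Syn1 and Rab3b had the smallest p-values on either side and Syn2 is the paralog that did not follow Syn1. They are the 250 bases before the RefSeq gene start in build GRCr8, 5′ to 3′, all on the plus strand; the counts were made on another build, Rnor_6.0. The windows are chrX:3725495-3725744 for Syn1, chr4:149858669-149858918 for Syn2 and chr5:128858841-128859090 for Rab3b. Capitals mark matches on either strand to the motifs searched: the cAMP response element TGACGTCA, the Egr1 site GCGGGGGCG, the GC box GGGCGG (which can overlap the Egr1 site), the left part TTCAGCACC and the right part GGACAG of the RE1 element bound by the repressor REST, and the TATA box TATAAA.
Syn1: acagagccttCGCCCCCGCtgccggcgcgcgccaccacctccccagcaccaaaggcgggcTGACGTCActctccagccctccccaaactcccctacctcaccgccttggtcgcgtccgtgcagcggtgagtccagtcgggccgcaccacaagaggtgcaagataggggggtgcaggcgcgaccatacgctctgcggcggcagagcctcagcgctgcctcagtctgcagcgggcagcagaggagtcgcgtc
Syn2: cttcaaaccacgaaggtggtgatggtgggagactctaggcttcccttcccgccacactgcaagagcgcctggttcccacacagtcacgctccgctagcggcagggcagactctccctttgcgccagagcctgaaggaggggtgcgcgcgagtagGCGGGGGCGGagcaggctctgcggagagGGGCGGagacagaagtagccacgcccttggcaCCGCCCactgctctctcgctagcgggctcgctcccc
Rab3b: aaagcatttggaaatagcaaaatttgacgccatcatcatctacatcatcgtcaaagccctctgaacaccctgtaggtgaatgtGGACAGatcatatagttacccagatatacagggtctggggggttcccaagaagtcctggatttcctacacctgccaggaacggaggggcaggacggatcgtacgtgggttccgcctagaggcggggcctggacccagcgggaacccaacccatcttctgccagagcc

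The Syn1 window holds an Egr1 site that begins 240 bases before the start and a cAMP response element that begins 190 bases before it. The Syn2 window holds an Egr1 site at 96 bases, joined to a GC box at 92 bases, and further GC boxes at 68 and 36 bases. The Rab3b window holds only the short RE1 right part, at 167 bases. Upstream windows were found for 59 of the 77 genes. The Egr1 site was in 8 of 59 (13.6%) beside 2.49% of 27457 windows of all genes, long non-coding RNA genes included, and the 8 were Syn1, Syn2, Syp, Syt1, Vamp2, Vamp4, Rab3d and Stxbp5. The cAMP response element was in 3 of 59 (Napa, Syn1 and Vamp1; 5.08%) beside 1.7% of all. The GC box was in 38 of 59 (64.4%) beside 32.4%, the RE1 right part in 14 of 59 (23.7%) beside 18.3%, the left part in 0 beside 0.317%, and the TATA box in 3 of 59 (5.08%) beside 13.1%. The windows of release genes were richer in G and C, with a median of 61.6% beside 52.0% for all, and held a median of 16 CpG dinucleotides beside 6. Genes with the Egr1 site had fold changes on both sides of 0, from -3.62 for Syn1 to 1.15 for Vamp4. These matches are of letters only, and sites further upstream or cut by the edge of a window were not counted. The Syn1 window opens with acag, the last letters of the RE1 right part GGACAG. The bases before it were not searched, so the absence of RE1 parts holds for the window only.

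Among the other proteins of the vesicle membrane, Sv2a, Sv2b and Sv2c encode glycoproteins of the vesicle and Syp encodes synaptophysin, its abundant tetraspan protein. Sv2a varied little, at 487 and 433 against 482, 616 and 522 CPM, a fold change of -0.23 ± 0.31 (SE). Sv2c, the form enriched in striatum, stood at 193 and 156 against 138, 249 and 184 CPM, a fold change of -0.12 ± 0.42 (SE). Sv2b stood at 189 and 225 against 119, 370.03 and 149.95 CPM, a fold change of -0.04 ± 0.56 (SE). For all 3 the groups overlapped. The intervals of 2 standard errors still allow differences of more than 0.5 on the log2 scale for each of them. Syp stood at 53.8 and 16.1 against 19.7, 32.2 and 10.7 CPM, and its highest value was striatomesencephalic replicate 1. Of the 7 genes of this role 1 had a positive fold change, and 2 did with library totals as the only scaling.

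Vesicle SNAREs leaned to the other side, with 4 of 5 fold changes positive and a median of 0.72 under TMM, and 4 of 5 positive under each other scaling. Vamp4, a SNARE of endosomes and of slower release, stood at 139 and 295 CPM against 98.5, 106 and 89.0 CPM. Both striatomesencephalic libraries were above all 3 others. Its fold change was 1.15 ± 0.46 (SE, adjusted p = 0.779 with edgeR's quasi-likelihood test), and 0.51 without striatomesencephalic replicate 2. Its unadjusted p rose above 0.05 without that library and also without striatopallidal replicate 1 or 3. Vamp2, the main synaptobrevin of forebrain synapses, was near level at 113 and 172 against 169, 169 and 179.7 CPM, a fold change of -0.27 ± 0.40 (SE). Vamp1, the other synaptobrevin, stood at 81.5 and 117 against 36.0, 15.3 and 85.3 CPM, with striatopallidal replicate 3 inside the striatomesencephalic range, a fold change of 1.13 ± 0.75 (SE) that was 0.71 without striatopallidal replicate 2. The ratio of Vamp1 to Vamp2 counts, which does not depend on library scaling, was 0.721 and 0.682 in striatomesencephalic libraries and 0.213, 0.0907 and 0.475 in striatopallidal libraries. This ratio was chosen after the values were seen and is given without a test. Vamp3 and Vamp7, which serve endosomal and lysosomal traffic, had fold changes of 0.72 and 0.23 with overlapping groups.

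On the plasma membrane side the largest counts were of Snap25, the SNARE anchored by lipid that completes the complex. Snap25 stood at 525 and 523 CPM in striatomesencephalic libraries and at 871, 821 and 1329.5 CPM in striatopallidal libraries, so that all 3 of the latter were higher. The fold change was -0.94 ± 0.34 (SE, adjusted p = 0.779 with edgeR's quasi-likelihood test), and -0.69 without striatopallidal replicate 3. Its unadjusted p rose above 0.05 without that library and also without either striatomesencephalic library. Stx1a, a syntaxin of the presynaptic membrane, had 23 to 355 counts, at 2.30 and 0.999 against 2.03, 4.95 and 14.9 CPM, and striatopallidal replicate 3 was the high one. Of the remaining syntaxins of the plasma membrane, Stx2, Stx3 and Stx4 had overlapping groups and fold changes of -0.11, 0.29 and -1.84. Summed over the 6 plasma membrane SNARE genes, CPM was 773 and 786 in striatomesencephalic and 1080.3, 1142 and 1512 in striatopallidal libraries, most of it Snap25. Summed over the 5 vesicle SNARE genes the order was the reverse, with 561 and 747 CPM against 470.0, 344 and 527 CPM.

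Napa, which encodes alpha-SNAP, the adaptor that brings NSF to spent SNARE complexes, stood at 31.9 and 64.2 CPM against 124, 93.2 and 392 CPM. All striatopallidal libraries were above both striatomesencephalic ones, and replicate 3 was 3.15 times the next. The fold change was -2.08 ± 0.77 (SE, adjusted p = 0.779 with edgeR's quasi-likelihood test), and it was -1.18 without that library. Its unadjusted p rose above 0.05 without that library and also without either striatomesencephalic library. Nsf itself, the ATPase, was level, at 641 and 868 against 710.3, 743 and 779 CPM, a fold change of 0.02 ± 0.30 (SE). Napg, which encodes gamma-SNAP, had the opposite order, at 292 and 218 against 138, 147 and 154 CPM, a fold change of 0.80 ± 0.37 (SE, adjusted p = 0.779 with edgeR's quasi-likelihood test).

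Among genes for proteins that bind syntaxins, Stxbp3, which serves exocytosis in many tissues, stood at 37.0 and 52.4 against 22.8, 13.6 and 6.38 CPM, with both striatomesencephalic libraries above the others. Its fold change was 1.65 ± 0.74 (SE, adjusted p = 0.779 with edgeR's quasi-likelihood test). Of the 7 syntaxin binders 6 had positive fold changes with a median of 0.29. With the normalization factors of the labels as divisors, which leaves out the library totals, 5 did.

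Of 6 active zone priming genes tested, 4 had positive fold changes, and 5 did with library totals as the only scaling. Rims1, which encodes an active zone scaffold that binds Rab3 and Munc13, stood at 174 and 409.5 against 179, 238 and 147 CPM, and only striatomesencephalic replicate 2 was high. Its fold change of 0.63 ± 0.48 (SE) was -0.11 without that library. Rims2 was among the steadiest genes, at 318 and 378 against 293, 378 and 272 CPM, a fold change of 0.15 ± 0.35 (SE). Unc13a, which encodes Munc13-1, was nearly absent from striatopallidal replicate 2, with 7 counts against 226 and 279 in the other striatopallidal and 54 and 98 in the striatomesencephalic libraries. Its fold change of -0.97 ± 1.41 (SE) was -1.53 without that library. Unc13c, the Munc13-3 gene, stood at 66.6 and 96.6 against 53.3, 24.5 and 46.7 CPM, so the groups did not overlap, with a fold change of 0.97 ± 0.57 (SE, adjusted p = 0.799 with edgeR's quasi-likelihood test). Unc13b had the same order, at 23.9 and 20.9 against 11.6, 1.41 and 12.2 CPM, a fold change of 1.42 ± 1.0 (SE) that was 0.91 without striatopallidal replicate 2. Rims3 was the gene that did not pass the filter, with 196 counts in striatopallidal replicate 3 and 0 to 10 in every other library.

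The complexin genes Cplx1 and Cplx2 had fold changes of opposite sign. Cplx1 stood at 115 and 140.3 CPM in striatomesencephalic libraries and at 191, 281 and 226 CPM in striatopallidal libraries, a fold change of -0.87 ± 0.40 (SE, adjusted p = 0.779 with edgeR's quasi-likelihood test). Cplx2 stood at 171 and 159 against 108, 135 and 137 CPM, a fold change of 0.38 ± 0.39 (SE, adjusted p = 0.877 with edgeR's quasi-likelihood test). Neither gene's groups overlapped, and the striatopallidal libraries were the high ones for Cplx1 and the low ones for Cplx2. The ratio of Cplx1 to Cplx2 counts, which is free of library scaling, was 0.674 and 0.884 in striatomesencephalic libraries and 1.77, 2.08 and 1.65 in striatopallidal libraries. The lowest striatopallidal ratio was thus well above the highest striatomesencephalic one, and striatopallidal replicate 2 did not set the difference. This ratio too was chosen after the values were seen and has no test. Cplx3, known from ribbon synapses of the retina, stood at 18.5 and 10.9 against 7.08, 24.5 and 9.31 CPM.

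**Figure D3:**
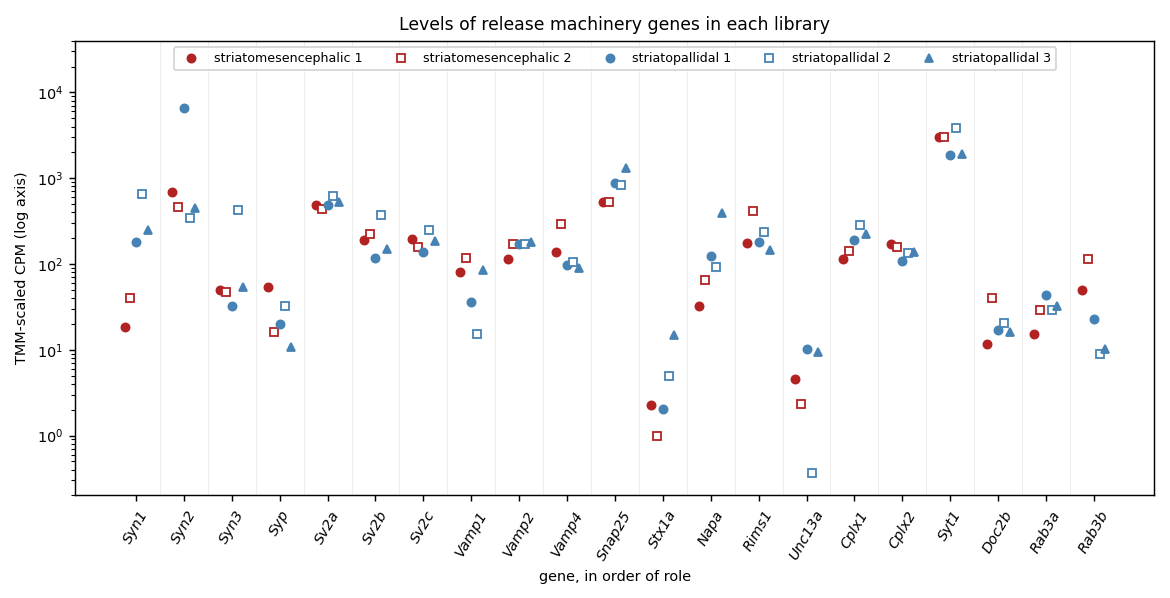
TMM-scaled CPM on a log axis (y) of 21 release genes in order of role (x), with a point for each library: red for striatomesencephalic and blue for striatopallidal, with the shape giving the replicate. Red and blue points separate for Syn1, Rab3b, Vamp4, Snap25, Napa, Cplx1 and Cplx2 and mix for the other genes; Syn2 and Syn3 each have a single high blue point, and Unc13a a single low one.

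The synaptotagmin and Doc2 genes were grouped by name as calcium sensors, though not all of their proteins bind calcium. Of the 16 tested, 9 had positive fold changes (11 with library totals as the only scaling) with a median of 0.37. None had an unadjusted p under 0.05 in edgeR's quasi-likelihood test. Syt1, the fast sensor of forebrain synapses, stood at 3055 and 2995 against 1887, 3825 and 1932 CPM, a fold change of 0.25 ± 0.36 (SE) that was 0.66 without striatopallidal replicate 2. The striatomesencephalic libraries were close to each other and lay inside the striatopallidal range. Syt11, a synaptotagmin that does not bind calcium, stood at 1221 and 1273 against 741, 916 and 969 CPM without overlap, a fold change of 0.51 ± 0.28 (SE, adjusted p = 0.784 with edgeR's quasi-likelihood test). Syt2, the fast sensor of hindbrain synapses and of some interneurons, had 1 and 72 counts against 572, 228 and 171. Its fold change was -3.07 ± 1.61 (SE), -2.09 without striatomesencephalic replicate 1 and -8.02 without replicate 2, which leaves the library with 1 count. Syt4 was the steadiest release gene of all, at 497 and 549.7 against 533, 548 and 576 CPM, and the highest library was 1.16 times the lowest. Syt7, a sensor of slow and asynchronous release, was next, at 38.0 and 30.8 against 31.4, 33.7 and 40.9 CPM. Doc2b, a high-affinity sensor of spontaneous release, stood at 11.8 and 39.7 against 17.1, 20.3 and 15.9 CPM, with striatomesencephalic replicate 1 lowest and replicate 2 highest.

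Rab3 GTPases sit on vesicles in their GTP form and bind RIM at the active zone. Rab3b stood at 49.1 and 114 CPM in striatomesencephalic libraries, from 1070 and 2625 counts, and at 22.5, 8.81 and 10.3 CPM in striatopallidal libraries, from 611, 169 and 245 counts. Both striatomesencephalic libraries were above all striatopallidal ones. The fold change was 2.55 ± 0.72 (SE), with an adjusted p of 0.779 in edgeR's quasi-likelihood test and an adjusted p of 0.0427 in DESeq2. It ran from 1.83 to 3.09 when each library was left out in turn and was 2.30 without striatopallidal replicate 2. Without striatomesencephalic replicate 2 its unadjusted p was no longer under 0.05. Rab3a, the main form of brain synapses, stood at 15.1 and 29.1 against 43.7, 29.0 and 31.9 CPM, a fold change of -0.66 ± 0.66 (SE) with a narrow overlap of the groups. Rab3c had a fold change of -1.23 and Rab3d of -0.05, both with overlapping groups. Rab3gap2, a subunit of the complex that turns Rab3 off, stood at 65.3 and 41.6 against 84.0, 123 and 71.0 CPM, a fold change of -0.79 ± 0.52 (SE, adjusted p = 0.809 with edgeR's quasi-likelihood test), while its partner Rab3gap1 had 0.26.

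The naming rule also takes genes from outside the synapse. Of 8 syntaxins of membranes inside the cell, mainly endosomes and the Golgi, 7 had positive fold changes under TMM, 6 to 8 under the other scalings. Stx16, a syntaxin of the trans-Golgi network, stood at 147 and 326 against 126, 66.6 and 125 CPM, a fold change of 1.16 ± 0.52 (SE, adjusted p = 0.779 with edgeR's quasi-likelihood test), which was 0.48 without striatomesencephalic replicate 2. Of 10 GTPases named Rab30 to Rab39a, 4 had positive values. Rab39a, the one with the most counts, stood at 323 and 445 against 205, 357 and 249 CPM. Rab32, a GTPase of melanosomes and mitochondria that is also found in microglia, had 0 and 121 counts against 1074, 362 and 512. The 5 microglial markers all had negative fold changes, with a median of -1.57 and overlapping sums, and their part in the Rab32 value was not tested. Rab38 had 674 and 834 counts in striatomesencephalic replicate 1 and striatopallidal replicate 2 and 0 to 2 in the other libraries, a gene chosen after its values were seen.

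The spread among libraries of a group was wide for many of these genes. Of the 77, 71 had over 3 counts in every library, and their highest library was a median of 3.38 times the lowest, beside 4.19 for all 11618 such genes. Those 11618 were not limited to the authors' comparison, from which the release genes came. The ratio was under 2 in 12 of 71 (16.9%), beside 14% of all. They included Syt4, Syt7, Syt11, Syt14, Rims2, Sv2a, Sv2c, Cplx2, Vamp2, Stx6 and Stx8. In 7 genes a single library was more than 3 times the next: Syn2, Syn3, Napa, Stx1a, Stxbp2, Rab34 and Rims3. The highest value fell in striatomesencephalic replicate 2 for 24 of 76 genes (31.6%, beside 19.7% of all genes) and in striatopallidal replicate 2 for 24 of 76 (31.6%, beside 28.1%). The lowest value fell most often in striatopallidal replicate 2, for 22 of 76 (28.9%, beside 31.3%). Summed over all 77 genes, the CPM was 11409 and 12294 in striatomesencephalic libraries and 15711, 13594 and 10725 in striatopallidal libraries. Without Syn2 the sums were 10710.4 and 11834 against 9060.4, 13249 and 10275, so the high sum of striatopallidal replicate 1 was its Syn2 reads.

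**Figure D4:**
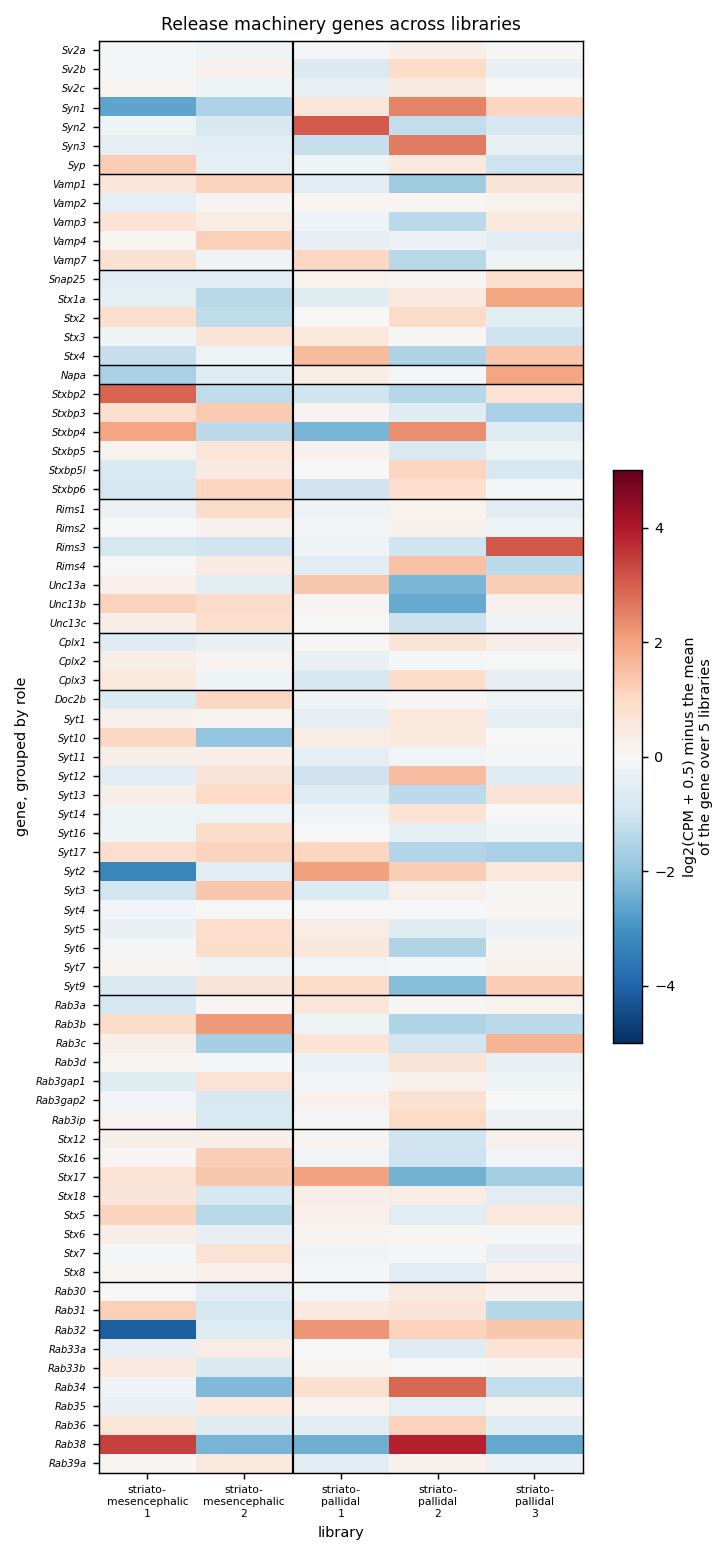
Level of 75 of the 77 genes (rows, grouped by role) in each library (columns), as log2(CPM + 0.5) minus the mean of that gene over the 5 libraries, red above and blue below. Syn1 and Rab3b change colour at the line between the groups, with larger steps than most rows, while other rows have a single dark cell, as Syn2 has in striatopallidal replicate 1 and Unc13a in striatopallidal replicate 2.

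Other genes of the vesicle cycle were taken from 4 lists of 70 names, of which 63 were matched and tested. None passed with edgeR's quasi-likelihood test. At an unadjusted p under 0.05 there were 6 of 63 genes (9.52%, beside 6.07% of all genes tested), 4 on the striatomesencephalic side (2.93% of all genes) and 2 on the striatopallidal side (3.14% of all genes), and 30 fold changes were positive and 33 negative. Among 18 active zone scaffold genes none reached that p. Bsn, the giant scaffold bassoon, stood at 819 and 309 against 419, 523 and 431 CPM, and the liprin genes Ppfia1 and Ppfia2 had fold changes of -1.80 and -0.91, which were -0.95 and -0.35 without striatopallidal replicate 2. Among 12 further genes of the vesicle membrane, Scamp5 had 2.60 ± 0.77 (SE) and Scamp1 -0.95 ± 0.36 (SE), both secretory carrier proteins. Scamp5 had 1.52 without striatomesencephalic replicate 2. The proton pump subunit gene Atp6v0a1 had 1.03 ± 0.41 (SE, adjusted p = 0.779 with edgeR's quasi-likelihood test), with both striatomesencephalic libraries above the others. The subunit genes Atp6v1a, Atp6v1b2, Atp6v0c and Atp6v0d1 had -0.03, -0.42, -0.24 and 0.32, with overlapping groups. Slc32a1, the vesicular GABA transporter of these neurons, stood at 33.2 and 115 against 233, 1108 and 128 CPM, a fold change of -2.73 ± 1.07 (SE, adjusted p = 0.779 with edgeR's quasi-likelihood test). It was named after its values were seen. All striatopallidal libraries were higher, but replicate 2 was 4.76 times the next, and without it the fold change of Slc32a1 was -1.30 and its unadjusted p was above 0.05, as it also was without striatomesencephalic replicate 1. Among 23 endocytosis genes Sh3gl3, an endophilin, stood at 156 and 174 against 39.9, 43.7 and 49.9 CPM, a fold change of 1.89 ± 0.43 (SE, adjusted p = 0.779 with edgeR's quasi-likelihood test). Clta, a clathrin light chain, had 1.10 ± 0.39 (SE) and Cltc, the heavy chain, -0.30 ± 0.31 (SE). Sncb, beta-synuclein, had -1.05 ± 0.79 (SE) among the 10 SNARE partners and chaperones, and -0.24 without striatopallidal replicate 2.

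In the authors' deposited table, which compares the same groups with the sign reversed, 5 of the 77 genes (6.49%) had a p under 0.05, beside 4.53% of 12054 genes. In the authors' deposited table they were Syn1 (p = 0.00258), Rab3b (p = 0.00825), Syt11 (p = 0.0323), Stxbp3 (p = 0.0341) and Vamp4 (p = 0.0376). The smallest adjusted p of the release genes in the authors' deposited table was 0.927. Syn1, Rab3b and Vamp4 were thus under 0.05 in both analyses of the same counts, and Snap25 and Napa in edgeR's quasi-likelihood test only.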

How the data were processed

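Messenger RNA of laser-captured neurons was reverse transcribed and amplified with a single-cell kit before sequencing, per the labels' protocols, which mention no molecular identifiers. The build was Rnor_6.0 and the tools named are HTSeq, TopHat2, limma and edgeR, per the submitters' processing notes, which give no versions. For each library the authors deposited read counts for 32285 Ensembl genes. Per gene, the table of the authors' comparison holds the name, the log2 fold change and mean log2 level, the p-value, and scores not used here (moderated t, log odds). Tables of the authors' normalized values were not used. Counts were fitted over all 5 libraries with edgeR 4.0.16 in R 4.3.3: filterByExpr, TMM, glmQLFit and glmQLFTest, Benjamini-Hochberg threshold 0.05 over 13811 genes. CPM values are TMM-scaled. A standard error is the size of the fold change over the root of its F statistic. No gene length was used, so levels are compared between libraries and not between genes. The steps were tested on simulated counts. DESeq2 1.42.0 and limma 3.58.1 served as alternatives. Upstream sequences and overlaps come from RefSeq tables (GRCr8), matched by symbol.

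The genes and lists were chosen with earlier results of these data known. Named genes are, in each name family, the one with the highest mean CPM and the one with the smallest p, 21 core genes, and the 10 smallest p; of the other lists, 2 by p and 1 by CPM. Further genes are named to complete a role or a count and were chosen after their values were seen. Chi-square values between libraries were 164 to 585 per degree of freedom, so none was taken for a repeat. The results of 2 single genes are not reported here; both stay in the counts, sums and medians.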

Additional observations from a re-analysis of the deposited data

How the results depend on the processing

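The 2 against 3 libraries limit every comparison, with a biological coefficient of variation of 0.822. The number of release genes past the threshold was 0 in edgeR's quasi-likelihood fit, 2 with DESeq2 and 1 with the exact test of edgeR, and 0 each time a library was left out. At an unadjusted p under 0.05 there were 5 of 76 genes, beside 6.07% of all genes, and 3 of 76 with the exact test, beside 7.64%. With a striatopallidal library left out there were 3 to 7 of 75 or 76, beside 4.77% to 8.26% of all genes. The median fold change, 0.12, was -0.0490 to 0.29 with a library left out. It was -0.0719 with the normalization factors of the labels as divisors, where the median of all genes was -0.18 in place of -0.06. Those factors, 0.780 to 1.14, were close to the TMM factors, 0.774 to 1.14. As divisors they took the place of the library totals, so that setting leaves out library depth. The groups did not overlap for 18 genes and for 23 to 49 with a library left out, where fewer libraries leave less to overlap (32.1% to 49.8% of all genes). Of 390 fold changes of the 30 named genes under 13 alternatives, 13 changed sign. Sv2b was 0.14 with library totals as the only scaling and 0.19 with limma voom. With a library left out, it ran from -0.33 to 0.62, Sv2c from -0.31 to 0.11, Syp from -0.37 to 1.37, Vamp2 from -0.61 to 0.0011, Doc2b from -0.59 to 1.16, Rims1 from -0.11 to 1.13, Syn2 from -2.62 to 0.54 and Syn3 from -2.31 to 0.16. The cause was not tested. Replicate numbers are shared between groups but name no common animal or day, and deviations of same-numbered libraries correlated at -0.02 and -0.04. With the replicate block, 2 of 76 genes had an unadjusted p under 0.05, beside 3.37% of all genes, and Unc13a was 0.67. Striatopallidal replicate 3 has no partner in that block, so the blocked fold changes rest on the other libraries. Leaving out each library was added after seeing the data for genes outside the release set.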
